A study of Mus musculus with 8 samples.

Results

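Messenger RNAs of 10 nucleolar ribosome biogenesis factors were followed in an RNA immunoprecipitation sequencing (RIP-seq) study of the embryonic mouse cortex at day 12.5. In RIP-seq, RNA that comes down with an antibody-bound protein is sequenced and counted per gene. The 10 genes were chosen for the function of their proteins and taken by Ensembl ID: Npm1 (ENSMUSG00000057113), Ncl (ENSMUSG00000026234), Fbl (ENSMUSG00000046865), Nop56 (ENSMUSG00000027405), Nop58 (ENSMUSG00000026020), Dkc1 (ENSMUSG00000031403), Ubtf (ENSMUSG00000020923), Nolc1 (ENSMUSG00000015176), Bop1 (ENSMUSG00000022557) and Pes1 (ENSMUSG00000020430). They are 10 of 54838 gene IDs in the files, and all 10 had enough counts to be tested among 16716 genes.

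Dissociated cortical cells of the C57BL/6 strain were lysed, and 4 libraries came from pull-downs with a rabbit antibody against Exosc10, a mainly nuclear exoribonuclease subunit of the RNA exosome. For the other 4, normal rabbit IgG took the antibody's place as a mock. All groups share strain, tissue and age, no genetic or drug treatment is given, and the labels do not say whether libraries came from separate litters, so the error behind each p-value is the spread of these libraries and could be technical. No input RNA was analysed here, and values compare the pull-downs only. Values are in CPM (reads of a gene after all libraries are set to one size, with the trimmed mean of M-values, TMM, as scaling factor), so they are shares of a pull-down and not amounts recovered. A lysate mixes cell types, and fewer cells of a type cannot be told apart from less RNA per cell.

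Ribosomes are built in the nucleolus, where RNA polymerase I makes a long precursor that is cut, trimmed and chemically modified. Box C/D small nucleolar RNAs (snoRNAs) guide methylation of the ribosomal RNA and box H/ACA snoRNAs guide its pseudouridylation, each with its own set of core proteins. The RNA exosome trims several of these RNAs, among them the precursor of the 5.8S ribosomal RNA and snoRNAs. Several mRNAs for nucleolar proteins carry snoRNAs in their introns, which are released when the host transcript is spliced and trimmed.

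Library totals ran from 20967743 to 34506709 counts, and the shallowest library of each group was the one numbered 1. Both libraries numbered 1 stood apart for these genes. IgG library 1 had the highest IgG value for 8 of the 10 members, while library 1 was the highest IgG library for 35.9% of all tested genes. Exosc10 library 1 had the highest Exosc10 value for 8 of the 10, against 38.2% of all tested genes. Results are therefore given with all libraries and without both libraries numbered 1. These libraries were singled out by the members' own values, so the fits without them are no independent support. Leaving out IgG library 1 raised the log2 fold change of each member that was highest in it. Without both libraries numbered 1, 17.1% of all tested genes were called higher and 15.1% lower. The part of depth or of those libraries in the results was not tested. Markers of cortical and other cell types could not be checked, because the table of names used here pairs none of the IDs with symbols.

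Bop1 was higher and Npm1 was lower in the Exosc10 pull-down, and the other 8 members did not pass the test, which ignored the library number. Bop1 differed 1.80-fold, and Npm1 was 1.56-fold higher in the IgG pull-down (edgeR's quasi-likelihood test, Benjamini-Hochberg adjusted p = 0.0339 and 0.0368). Pes1 and Nolc1 had smaller log2 fold changes than Bop1 (0.70 and 0.67 against 0.85). Their standard errors were slightly larger (0.26 and 0.27 against 0.24). Nop56, Ubtf, Fbl, Dkc1 and Ncl had intervals spanning 0. Among all 16716 tested genes 7.92% were called higher and 5.82% lower, so 1 of 10 in each direction is a share near the background. Of the 20% of tested genes ranked highest by mean CPM, which include 6 of the members, 14.9% were called higher and 6.28% lower. The median log2 fold change of the 10 members was 0.20, with a range from -0.64 to 0.85, beside -0.03 for all tested genes and 0.09 for that most abundant 20%. The members thus spread to both sides of the median gene. Together they took 1525 ± 262 CPM of the Exosc10 and 1484 ± 315 CPM of the IgG libraries (SD, n = 4 each), a difference well within the spread between libraries. The outcome depended on whether the library number entered the edgeR fit as a block, which compares libraries of the same number. With that block Nop56, Nolc1 and Pes1 were called higher as well (edgeR adjusted p = 0.0243, 0.0065 and 0.00584). Bop1 and Npm1 stayed called, while 14.9% of all tested genes were called higher and 12% lower.

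**Figure D1:**
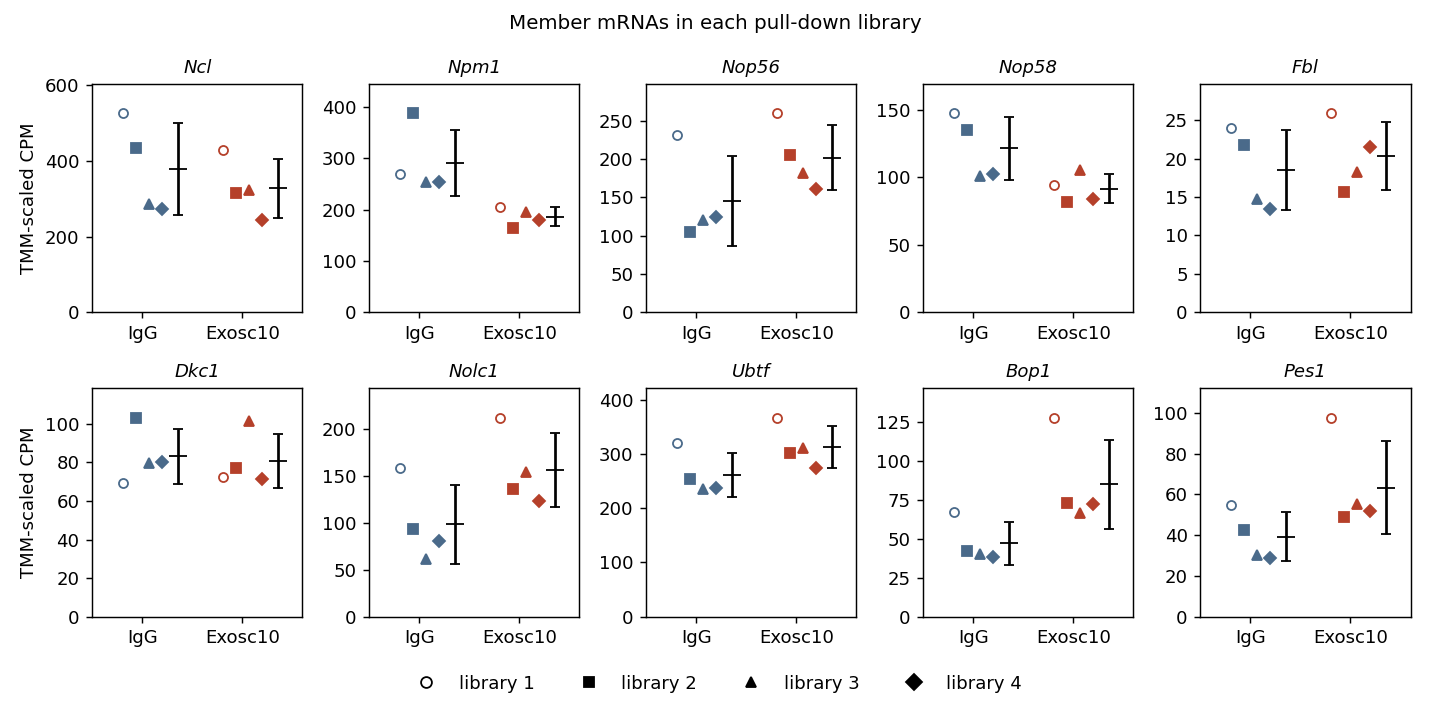
TMM-scaled CPM (y axis, from 0, a separate scale for each gene) of the 10 members in the 4 IgG and 4 Exosc10 libraries; marker shapes give the library number, open circles mark library 1, and bars give the mean and SD (n = 4). Npm1 is the only member whose groups do not overlap, and in the Bop1 panel the Exosc10 values of 66.6 to 128 touch the IgG values only through IgG library 1 at 67.5.

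Bop1 and Pes1 form, with Wdr12, the PeBoW complex, which is needed to process the precursor of the large ribosomal subunit's RNA. Bop1 stood at 128, 72.9, 66.6 and 72.3 CPM in Exosc10 libraries 1 to 4 and at 67.5, 42.4, 40.1 and 38.3 CPM in IgG libraries 1 to 4. Only IgG library 1 reached into the Exosc10 range, just above the lowest Exosc10 value. Its log2 fold change was 0.85 ± 0.24 (SE; 95% confidence interval, CI, from 0.33 to 1.37; adjusted p of 0.0339 in edgeR), larger than that of 94.7% of tested genes. The gene lies on chromosome 15 at 76452988 to 76477249 (GRCm38.p6), spans Scx wholly over 2058 bases and shares 52 bases with Mroh1. Whether the counting used strand is not given in the sources used here, so reads of these neighbours could have been counted with Bop1.

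The Bop1 call was lost in 6 of the fits that leave out a library, where the edgeR adjusted p was 0.0542 without Exosc10 library 1, 0.0610 without Exosc10 library 2, 0.0618 without Exosc10 library 4, 0.0938 without IgG library 2, 0.0972 without IgG library 3 and 0.105 without IgG library 4. It was also lost with upper-quartile scaling (adjusted p = 0.0503), under which 1025 genes were called higher and 1369 lower, against 1324 and 973 with TMM. Without both libraries numbered 1 the groups lay far apart, at 66.6 to 72.9 CPM with Exosc10 and 38.3 to 42.4 CPM with IgG. There the log2 fold change was 0.81 ± 0.13 (SE; 95% CI from 0.54 to 1.08; adjusted p of 0.000273 in edgeR).

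Pes1 did not pass the test with all libraries and no block. It stood at 97.6, 48.8, 55.1 and 51.7 CPM with Exosc10 and at 54.6, 42.5, 30.3 and 28.9 CPM with IgG. IgG library 1 lay above 2 of the Exosc10 libraries, so the groups overlapped. The log2 fold change was 0.70 ± 0.26 (SE; 95% CI from 0.14 to 1.25; adjusted p of 0.0851 in edgeR). Without IgG library 1 the adjusted p was 0.0235, and without both libraries numbered 1 it was 0.00856, with a log2 fold change of 0.61 ± 0.16 (SE). With any other single library left out, Pes1 was not called (edgeR adjusted p from 0.0971 to 0.216). The proportion of these partners overlapped between the pull-downs. The ratio of Bop1 to Pes1 counts was 1.31, 1.49, 1.21 and 1.40 in the Exosc10 libraries and 1.24, 1.00, 1.32 and 1.33 in the IgG libraries. Of all pairs of members, the deviations of Bop1 and Pes1 from their group means were among the most alike (Pearson r = 0.93 over 8 libraries, as a description), and each was the most similar member to the other. Both genes peaked in library 1 of each group, and r was not computed without those libraries or for genes outside the members.

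Npm1 encodes nucleophosmin, an abundant histone and ribosome chaperone of the outer, granular nucleolus. Its gene lies on chromosome 11 at 33152498 to 33164142 (GRCm38.p6). Npm1 stood at 206, 164, 196 and 179 CPM with Exosc10 and at 269, 387, 254 and 253 CPM with IgG. Every IgG library lay above every Exosc10 library. Of all tested genes, 8.45% were separated in this direction and 10.6% in the other; among the members these were 1 and 0. The log2 fold change was -0.64 ± 0.19 (SE; 95% CI from -1.05 to -0.24; adjusted p of 0.0368 in edgeR). IgG library 2 stood far above the other IgG libraries, and without it the log2 fold change was -0.47 with an edgeR adjusted p of 0.113. The call was also lost without Exosc10 library 2 (edgeR adjusted p = 0.126), Exosc10 library 3 (0.0711), Exosc10 library 4 (0.111), IgG library 3 (0.0633) or IgG library 4 (0.0656). Without both libraries numbered 1 it was kept, at -0.73 ± 0.17 (SE; edgeR adjusted p = 0.00407). Npm1 has processed pseudogenes of similar sequence, and how reads that map to several places were counted is not given in the sources used here.

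Ncl encodes nucleolin, a nucleolar RNA-binding protein that acts in ribosomal RNA transcription and processing. It stood at 430, 315, 322 and 243 CPM with Exosc10 and at 525, 434, 287 and 272 CPM with IgG. The libraries of the groups were interleaved, and the spread within a group exceeded the difference. For Ncl the log2 fold change was -0.21 ± 0.24 (SE; 95% CI from -0.73 to 0.30; adjusted p of 0.588 in edgeR), an interval that leaves room for a difference of moderate size in the lower direction. The ratio of Ncl to Npm1 counts was 1.36 to 2.09 with Exosc10 and 1.08 to 1.95 with IgG, where IgG library 1 gave the 1.95 and the other 3 gave at most 1.13.

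The core proteins of box C/D snoRNA particles include Fbl (fibrillarin, the methyltransferase) and the related scaffold proteins Nop56 and Nop58. The mRNAs of these 3 did not lie on the same side. Nop56 stood at 260, 205, 182 and 161 CPM with Exosc10 and at 232, 105, 120 and 124 CPM with IgG. The 3 IgG libraries other than number 1 lay below all Exosc10 libraries, and IgG library 1 lay above 3 of them. On the log2 scale the difference was 0.47 ± 0.25 (SE; 95% CI from -0.06 to 1.01; adjusted p of 0.216 in edgeR). Without IgG library 1 it was 0.80 (edgeR adjusted p = 0.0105), and without both libraries numbered 1 it was 0.65 ± 0.14 (SE; edgeR adjusted p = 0.00240). With any other single library left out, Nop56 was not called (edgeR adjusted p from 0.217 to 0.427).

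Nop58 stood at 94.1, 82.0, 106 and 84.3 CPM with Exosc10 and at 147, 135, 101 and 103 CPM with IgG. IgG libraries 3 and 4 lay just below the highest Exosc10 library, and all other IgG values were above it. The log2 fold change was -0.41 ± 0.18 (SE; 95% CI from -0.80 to -0.02), with an adjusted p of 0.144 in edgeR. Fbl stood at 25.9, 15.7, 18.2 and 21.5 CPM with Exosc10 and at 24.0, 21.7, 14.7 and 13.5 CPM with IgG, with a log2 fold change of 0.14 ± 0.23 (SE; 95% CI from -0.35 to 0.62; adjusted p of 0.730 in edgeR). Fbl rested on 357 to 735 reads a library, the lowest of the members, and its groups overlapped along nearly their whole range.

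A ratio of read counts within a library does not depend on how libraries are scaled. The Nop56 to Nop58 ratio was 2.76, 2.5, 1.72 and 1.91 in the Exosc10 libraries and 1.58, 0.779, 1.19 and 1.21 in the IgG libraries, with no overlap. On average it was 1.89 times as high with Exosc10 (exact two-sided permutation test over 70 assignments, p = 0.0286, the smallest it can give; adjusted over 6 ratios, 0.0857). The Nop58 to Fbl ratio did not overlap either, at 3.64 to 5.80 with Exosc10 and 6.13 to 7.61 with IgG (exact permutation p = 0.0286, adjusted 0.0857). Both of these ratios hold Nop58, so they are not independent. How often ratios of other gene pairs separate was not computed. The ratios of Nop56 to Fbl, Bop1 to Pes1, Nolc1 to Dkc1 and Ncl to Npm1 overlapped, with adjusted exact permutation p of 0.286, 0.286, 0.171 and 0.171. None of the 6 passed 0.05 after adjustment, and the 6 ratios were chosen after values had been seen. With a smallest possible p of 0.0286, 2 fully separated ratios of 6 could not have passed, so their adjusted p decides nothing.

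**Figure D2:**
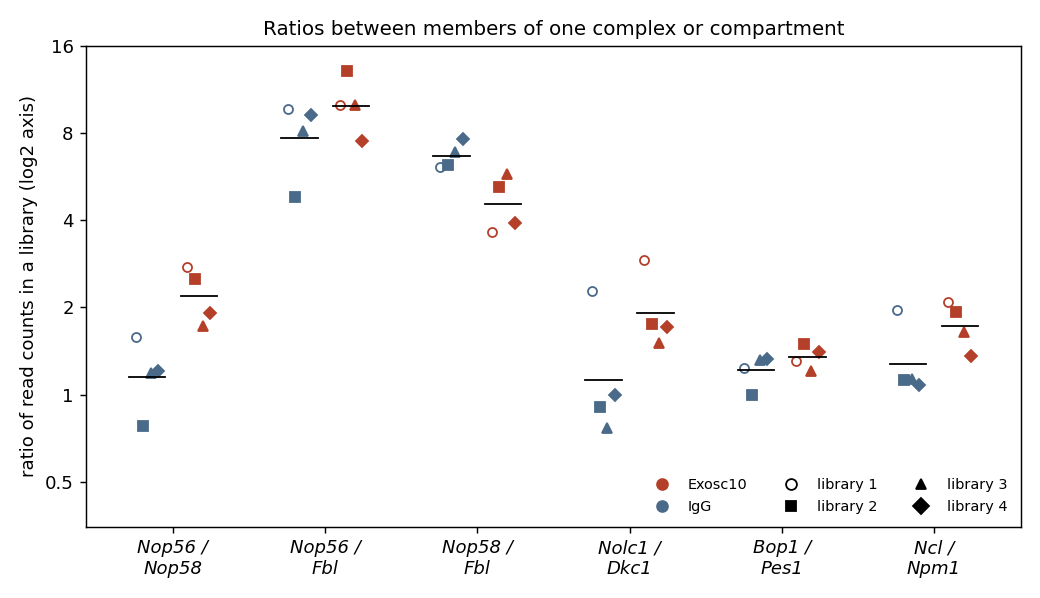
Ratio of read counts of 2 members in each library (y axis, log2 scale) for 6 pairs; blue points are IgG and red points Exosc10 libraries, shapes give the library number with library 1 open, and lines are geometric means (n = 4). The Nop56 to Nop58 ratios lie between 1.72 and 2.76 with Exosc10 and between 0.779 and 1.58 with IgG, and IgG library 1 lies above the other IgG libraries for Nolc1 to Dkc1 and for Ncl to Npm1.

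Dkc1 encodes dyskerin, the pseudouridine synthase of box H/ACA particles, and Nolc1 encodes Nopp140, a phosphoprotein that accompanies snoRNA particles and binds dyskerin. Dkc1 stood at 72.4, 77.4, 102 and 71.4 CPM with Exosc10 and at 69.4, 103, 79.9 and 80.4 CPM with IgG. Its groups overlapped fully, and the log2 fold change was -0.05 ± 0.18 (SE; 95% CI from -0.44 to 0.35; adjusted p of 0.898 in edgeR). It was the member least like most others in its deviations across libraries. It was also the only member that peaked in library 1 of neither group.

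Nolc1 stood at 212, 136, 153 and 123 CPM with Exosc10 and at 158, 93.3, 61.1 and 80.0 CPM with IgG. Again IgG library 1 alone reached into the Exosc10 range. On the log2 scale Nolc1 differed by 0.67 ± 0.27 (SE; 95% CI from 0.10 to 1.24; adjusted p of 0.108 in edgeR). Without IgG library 1 it was 1.00 (edgeR adjusted p = 0.00765), and without both libraries numbered 1 it was 0.81 ± 0.16 (SE; edgeR adjusted p = 0.00141). With any other single library left out, Nolc1 was not called (edgeR adjusted p from 0.127 to 0.263). Ubtf encodes the upstream binding factor that opens ribosomal DNA for RNA polymerase I. It stood at 367, 301, 310 and 275 CPM with Exosc10 and at 320, 254, 234 and 237 CPM with IgG. Its log2 fold change was 0.26 ± 0.18 (SE; 95% CI from -0.12 to 0.64; adjusted p of 0.339 in edgeR), with the 3 IgG libraries other than number 1 below all Exosc10 libraries. Ubtf and Nolc1 deviated from their group means most alike of all pairs (Pearson r = 0.96 over 8 libraries, as a description).

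Without both libraries numbered 1, 4 members were called higher (Nop56, Nolc1, Bop1 and Pes1) and 1 lower (Npm1). In that fit 17.1% of all tested genes were called higher and 15.1% lower. Exosc10 values lay wholly above IgG values for 5 members (these 4 and Ubtf) and wholly below for Npm1, with 3 libraries a group. The same separation held for 23.9% of all tested genes upward and 22.3% downward. Both the count of members and the background were thus larger without these libraries.

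**Figure D3:**
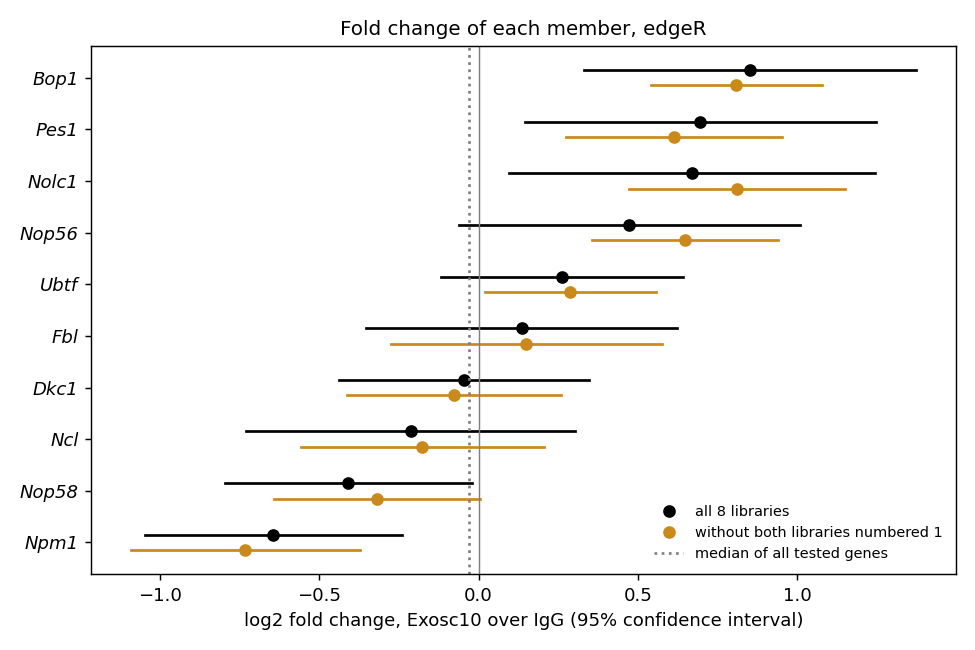
Log2 fold change of each member, Exosc10 over IgG (x axis), with 95% confidence intervals from edgeR, for all 8 libraries in black and without both libraries numbered 1 in orange; the dotted line is the median of all tested genes, at -0.03. Points keep their side of 0 in both fits, and the intervals of Bop1, Pes1, Nolc1, Nop58 and Npm1 leave out 0 with all libraries. Without the libraries numbered 1 those of Nop56 and Ubtf also leave out 0, and that of Nop58 no longer does.

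The RefSeq annotation of GRCm38.p6 places 12 snoRNA genes inside 4 of the members and none inside the other 6. Nop56 (chromosome 2, 130274367 to 130279313) holds 5, among them Snord110 and Snord57. Nop58 (chromosome 1, 59684961 to 59711510) holds 4, among them Snord70 and Snord11. Ncl (chromosome 1, 86344719 to 86359455) holds Snora75 and Snord82, and Dkc1 (chromosome X, 75095854 to 75109776) holds 1. None of these 4 hosts passed the test with all libraries and no block. In that test 7.92% of all tested genes were called higher and 5.82% lower. When the library number entered as a block, Nop56 was called higher (edgeR adjusted p = 0.0243), as were 14.9% of all tested genes. With all libraries and no block the log2 fold changes of the hosts were 0.47, -0.41, -0.21 and -0.05, on both sides of 0. Bop1 and Npm1, which passed the test without the block, hold none. Whether snoRNA genes inside a member bear on its difference between the pull-downs was not tested. The snoRNA rows themselves were not analysed here, since their IDs could not be matched. Nop56 shares 5 bases with Idh3b and Dkc1 shares 44 with Mpp1 at a gene end.

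Promoter sequences were examined for the members whose Exosc10 values lay wholly above the IgG values without the libraries numbered 1. Nop58 was added beside its relative Nop56, and the choice thus rests on these same counts. RefSeq starts were given for 7 of the 10 members, and Bop1 had no entry. Ubtf, with 6 annotated starts, is not shown. Each sequence runs 5′ to 3′ on the gene's strand from 250 bases before to 20 bases after the annotated start (GRCm38.p6): chr2:130274162-130274431 for Nop56, chr1:59684756-59685025 for Nop58, chr19:46075597-46075866 for Nolc1 and chr11:3963725-3963994 for Pes1, all on the plus strand. Capitals mark an E-box (CACGTG, the site of Myc-family factors), a GC box (GGGCGG or its reverse, CCGCCC) or a CCAAT box (CCAAT or its reverse, ATTGG), and no marked matches overlap.
Nop56: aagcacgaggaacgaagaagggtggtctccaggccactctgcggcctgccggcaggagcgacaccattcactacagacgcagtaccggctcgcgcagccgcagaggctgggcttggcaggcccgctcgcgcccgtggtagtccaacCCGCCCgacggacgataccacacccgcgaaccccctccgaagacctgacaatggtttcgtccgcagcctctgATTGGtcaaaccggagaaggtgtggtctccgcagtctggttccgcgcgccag
Nop58: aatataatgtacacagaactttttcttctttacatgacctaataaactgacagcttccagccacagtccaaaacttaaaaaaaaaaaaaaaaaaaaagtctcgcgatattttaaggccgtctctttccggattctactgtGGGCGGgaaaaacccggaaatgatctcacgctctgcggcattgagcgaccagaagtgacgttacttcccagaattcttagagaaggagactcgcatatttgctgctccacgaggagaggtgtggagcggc
Nolc1: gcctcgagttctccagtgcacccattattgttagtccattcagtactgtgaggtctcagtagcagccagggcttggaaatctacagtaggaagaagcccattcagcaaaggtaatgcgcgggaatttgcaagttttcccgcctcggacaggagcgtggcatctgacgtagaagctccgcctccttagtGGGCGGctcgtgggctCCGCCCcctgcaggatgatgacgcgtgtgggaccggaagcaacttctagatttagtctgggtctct
Pes1: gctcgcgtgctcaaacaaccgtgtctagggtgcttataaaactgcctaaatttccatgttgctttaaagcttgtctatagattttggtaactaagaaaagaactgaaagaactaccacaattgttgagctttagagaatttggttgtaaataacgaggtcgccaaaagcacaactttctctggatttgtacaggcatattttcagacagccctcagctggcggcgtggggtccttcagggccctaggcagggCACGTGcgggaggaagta

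Myc is a known activator of ribosome biogenesis genes. Of these 4 windows only that of Pes1 held CACGTG, just after the start, as did 6.57% of all 32851 promoter windows of this length. A GC box was found in the windows of Nop56, Nop58 and Nolc1, and in 34.1% of all windows. A CCAAT box was found in that of Nop56 alone of the 4, and in 35.4% of all windows. The 4 shared none of the 3 motifs, both strands being searched. A match describes letters in this window only, and RIP-seq counts do not measure transcription.

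**Figure D4:**
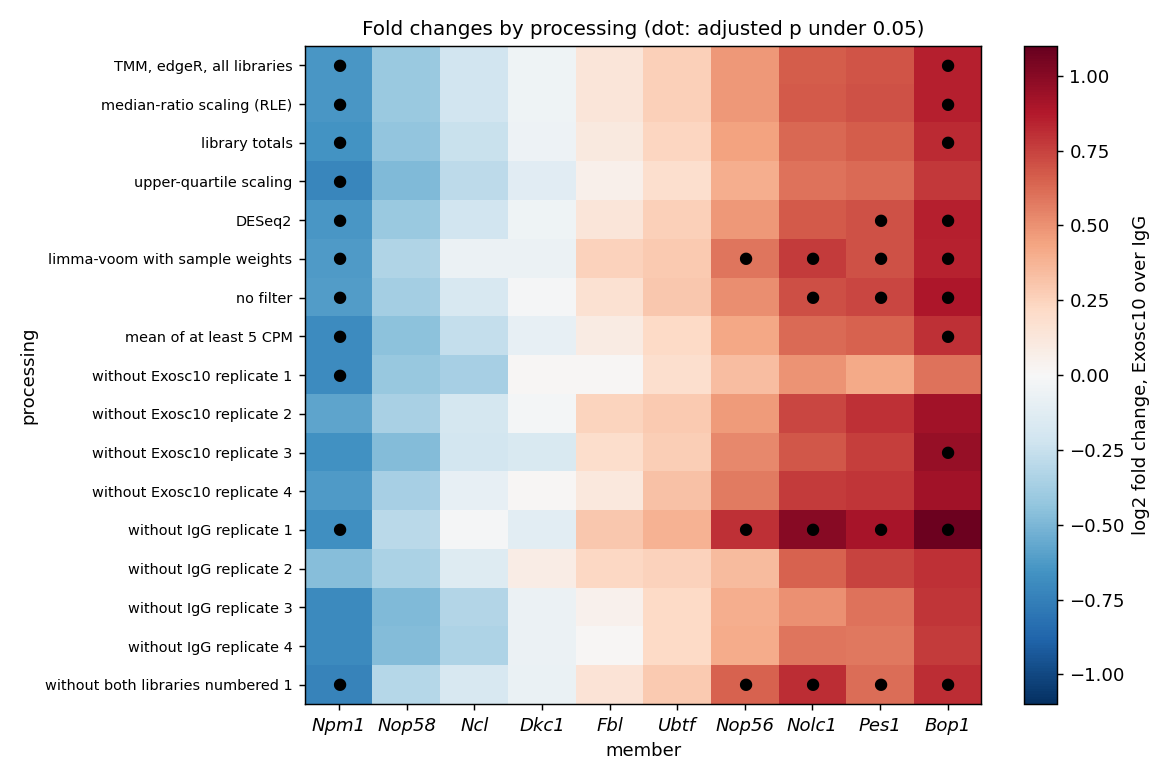
Log2 fold change of each member (columns, ordered by the value with all libraries) under each processing (rows), Exosc10 over IgG, as colour, with red above and blue below 0; a dot marks an adjusted p under 0.05. Bop1, Pes1, Nolc1, Nop56, Ubtf and Fbl stay above 0 and Npm1, Nop58 and Ncl below 0 in all rows drawn, while Dkc1 turns in 3 of them.

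The sides on which 9 of the 10 members lay were the same under all 17 alternatives tried, and Dkc1, the member nearest 0, turned. The calls were less steady than the sides. Of these, Npm1 was called in 11, Bop1 in 10, Pes1 in 6, Nolc1 in 5 and Nop56 in 4, and Ncl, Fbl, Nop58, Dkc1 and Ubtf in none. The fits reuse the same libraries, so a shared side is no independent support.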

How the data were processed

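The authors deposited raw read counts per Ensembl gene, 1 file per library (4 Exosc10, 4 IgG; groups and numbers from the sample titles). Per the submitters' processing notes, reads were handled with featureCounts 1.5.0-p1, STAR 2.5.2a and bcl2fastq 2.17.1.14, and the build was mm10; annotation, strand setting and handling of repeated or multiply mapped reads are not given in the sources used here. A count is thus not necessarily an independent molecule. The members, lists and ratios were chosen with earlier results of these data known. Member symbols came with the list of IDs. The RefSeq table (GRCm38.p6, 49997 genes, also the source of spans and promoters) matched 0 IDs, so a list of 71 other ribosome biogenesis genes and 23 cell type markers was not tested, and levels were not compared between genes for want of transcript lengths.

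The test was that of edgeR 4.0.16 (R 4.3.3), a quasi-likelihood F-test without covariates after TMM scaling and filterByExpr (minimum count 10, minimum total 15), with p-values adjusted by Benjamini-Hochberg over all 16716 genes and read at 0.05. The SE is the absolute log2 fold change over the square root of F. The naming rule took all 10 members. Alternatives were DESeq2 1.42.0, limma 3.58.1 (voom with sample weights), other scalings and filters, the replicate number as a block and libraries left out. The edgeR fit was tested on simulated counts before use.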

Additional observations from a re-analysis of the deposited data

Results flagged for a closer look

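In 34 groups of 4 libraries (10 members, their sum and 6 ratios in each pull-down), 7 had a highest library whose gap to the next passed Dixon's criterion at 95%, where chance gives about 1 in 20. Of these 7, 6 were libraries numbered 1. Bop1 stood at 128 CPM in Exosc10 library 1 and at 67.5 CPM in IgG library 1, Pes1 at 97.6 CPM in Exosc10 library 1 and Nop56 at 232 CPM in IgG library 1, each far above its group. In IgG library 1 the Nolc1 to Dkc1 ratio was 2.27 and the Ncl to Npm1 ratio 1.95. The other was Npm1 at 387 CPM in IgG library 2. The groups share libraries and the members deviate together, so the flags are not independent; their cause was not tested.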

How the results depend on the processing

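The number of members called higher was 1 with all libraries, where 7.92% of all tested genes were called higher. It was 0 with upper-quartile scaling (6.13% of all genes), 2 with DESeq2 (11.2%), 3 with no filter (5.53%), 4 with limma-voom (20.1%) and 4 without both libraries numbered 1 (17.1%); the cause was not tested. It was 1 with median-ratio scaling (8.02%), library totals (6.66%) and a mean of at least 5 CPM (10.6%). The number called lower was 1 in each of these, while 3.49% (no filter) to 18% (limma-voom) of all genes were called lower. Leaving out 1 library gave 0 to 4 higher and 0 to 1 lower members, and a median log2 fold change of the members from 0.10 to 0.34. The 4 came without IgG library 1, where 13% of all genes were called higher and 10.7% lower, against 3.43% to 9.52% higher and 1.54% to 6.55% lower without any other library. Over the other alternatives the median ran from 0.12 to 0.27. Dkc1, at -0.05 with all libraries, ran from -0.17 to 0.079 with 1 library left out and was above 0 without Exosc10 library 1, Exosc10 library 4 or IgG library 2. The difference in summed CPM, 41.1 with all libraries, ran from -81.1 to 169 with 1 library left out (added after the data had been seen), turning without Exosc10 library 1 (-81.1), IgG library 3 (-46.1) or IgG library 4 (-43.9).

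Libraries of the same number deviated together, with correlations of 0.34, 0.095, 0.34 and 0.22 across genes. Each of the 8 was most like the library of its own number in the other group. The labels name no pairs and 1 correlation was low, so the main test had no block. Any effect shared by libraries of the same number therefore stayed in the error of that test. The replicate block gave 4 higher members (Nop56, Nolc1, Bop1 and Pes1, with edgeR adjusted p of 0.0243, 0.0065, 0.000895 and 0.00584) and 1 lower (Npm1, 0.0146), and the same with library totals (added after the data had been seen), while 14.9% of all genes were called higher and 12% lower. The order of levels per length was not run for want of lengths. Fewer libraries leave fewer values to test, and an uncalled member may still differ between the pull-downs.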
